A study of Mus musculus with 2 samples.

Results

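Hbegf encodes heparin-binding EGF-like growth factor, a ligand of the EGF receptor. It is described here with receptors of the EGF receptor family and proteases that release such ligands. The set was given by name as 8 genes: the ligands Hbegf, Areg and Ereg, the receptors Egfr, Erbb2 and Erbb3, and the sheddases Adam17 and Adam10. A gene counted as measured where a spot carried its symbol as the only symbol in the platform annotation. By that rule 6 of the 8 genes had spots, 12 spots of the 42624 on the array, and 11 of these gave a value on each array. Areg and Ereg matched no spot and are not analysed here. The set was chosen by name with the Hbegf ratios of these same arrays known, which are the measured values behind the choice, so the values of its members are a description and carry no test.

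The cells were mouse tenocytes, the fibroblast-like cells that make tendon matrix, from a study of shear on flexor tendon. On a two-colour spotted array, sheared cells (Cy5) were compared with time-matched control cells (Cy3), once after 6 h and once after 12 h. The labels describe both RNAs of the 6 h array as coming from pooled cells, and give a shear setting of 50 rpm for the 12 h array only. Strain, age and genotype of the animals are not given in the sources used here. With 1 array per time point and no dye swap, no difference could be tested, and the precision of every value is limited by the number of arrays. The 2 arrays have their own controls and share none.

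Each value below is a log2 ratio of sheared over control after the median of all spots on that array was set to 0, and a gene is the median of its probes. The base of 2 is assumed and the direction is likely rather than settled, from the dyes in the labels; with the opposite direction every higher value would be a lower one. Before this centring the array medians were -0.323 (6 h) and -0.479 (12 h), so without it every value would be lower by that amount. The available error was the pooled SD between probes that share a gene, which was 0.738 log2 on the 6 h array and 0.855 on the 12 h array; it covers probes and not cultures. A gene was counted as higher or lower from a 2-fold difference, 1 on the log2 scale. The table holds ratios only, so no level of any transcript is known, and in RNA from a whole culture fewer cells of a type and less RNA per cell cannot be told apart.

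EGF family ligands are made as membrane-anchored precursors. Metalloproteinases of the ADAM family cut them at the cell surface, a step called ectodomain shedding, and the freed ligand binds an ErbB receptor on the same or a nearby cell. HB-EGF binds EGFR and ERBB4, and takes its name from its affinity for heparin and heparan sulphate. ERBB2 has no known soluble ligand and acts as a partner of the other receptors, while ERBB3 binds neuregulins and has a weak kinase. Active receptors recruit adaptors that switch on Ras and the MAP kinases, which in turn induce early genes, and Hbegf is itself one of the genes that MAP kinase signalling can induce.

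Hbegf stood far above the other members on both arrays. At 6 h its probes read 3.63 and 3.42, with a median of 3.52 (probe SD 0.15, 2 probes), an 11.5-fold higher ratio in the sheared cells. At 12 h the same probes read 3.46 and 3.78, with a median of 3.62 (probe SD 0.23), or 12.3-fold higher. All 4 readings lay between 3.42 and 3.78, and neither probe was the higher one on both arrays. The probes are separate spots in different print blocks, blocks 33 and 40 of 48, so the readings within an array do not share a print block.

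**Figure D1:**
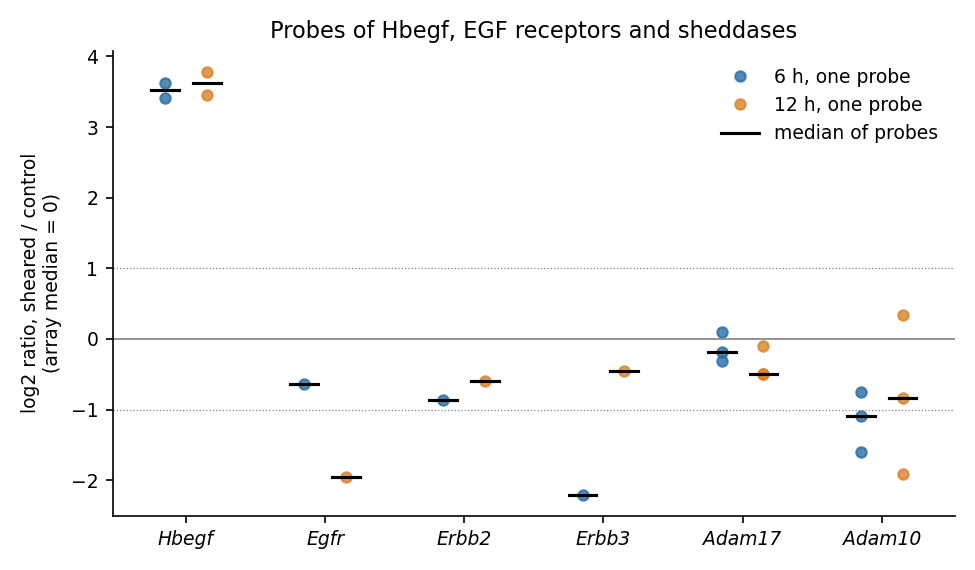
Log2 ratio of sheared over control (vertical axis, array median at 0) for each probe of the 6 measured genes; blue points are the 6 h array, orange points the 12 h array, black bars the median of the probes, and dotted lines mark 2-fold. The 4 Hbegf readings lie between 3.42 and 3.78, and the medians of the other genes lie below 0 on both arrays.

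Among all named genes Hbegf ranked 8 from the top of 10348 at 6 h and 3 from the top of 10733 at 12 h. No other gene of the 10288 on both arrays read as high as Hbegf on both. Restricted to the 5250 named genes with at least 2 probes on each array, Hbegf ranked 4 at 6 h and 1 at 12 h. At the level of single spots, 39327 spots had a value on both arrays, and 4 of them reached the lower Hbegf reading on each array. These were the Hbegf spots themselves, 1 spot of Mt1 (4.63 and 3.52), which encodes a metallothionein, and 1 spot of Jun (3.90 and 3.76), which encodes a component of the AP-1 transcription factor. Both were named after their values were seen.

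The 12 h reading of Hbegf differed little from the 6 h reading. The difference, 12 h minus 6 h, was 0.10 log2, with -0.17 on one probe and 0.36 on the other. It was smaller than the pooled SD between probes, which is a spread within an array and not the error of a difference between arrays. The sign of the difference was not stable: the difference was -0.06 without centring and -0.73 with the arrays brought to a common median absolute deviation. A difference within 0.5 log2 between the arrays was found for 51.1% of all genes, so the small difference by itself does not set Hbegf apart.

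The genes whose pair of values lay nearest to that of Hbegf were named by a distance rule. By Euclidean distance over the 2 arrays the 5 nearest were Mt2 (distance 0.902), Hmox1 (0.972), Mt1 (1.45), Ppp1r15a (1.51) and Gstp1 (1.66). Mt1 and Mt2 encode metallothioneins, which bind zinc and copper, and their similar transcripts can share signal. Hmox1 encodes the heme oxygenase that breaks down heme, Ppp1r15a a phosphatase subunit that restores translation after stress, and Gstp1 a glutathione transferase. Mt2 stood at 4.24 at 6 h (probe SD 0.19) and 3.08 at 12 h (probe SD 0.05). Hmox1 stood at 4.01 (probe SD 0.37) and 2.78 (probe SD 0.90), so both read lower at 12 h than at 6 h. Hbegf did not in the centred values, but it did without centring (-0.06) and with the arrays on a common scale (-0.73). Gstp1 ran the other way, with 2.12 (probe SD 0.37) at 6 h and 2.73 (probe SD 0.07) at 12 h. Mt1 stood at 4.925 (probe SD 2.03) at 6 h and 3.26 (probe SD 1.17) at 12 h. Ppp1r15a stood at 2.53 (probe SD 1.22) at 6 h and 2.49 (probe SD 0.51) at 12 h. The probe SD exceeded the pooled SD for Mt1 on both arrays and for Ppp1r15a at 6 h. Likeness over 2 arrays is a description of these ratios. The smallest distance, 0.902, exceeded the SD between the Hbegf probes on either array. It combines 2 arrays, whose pooled SDs between probes were 0.738 (6 h) and 0.855 (12 h). Whether these genes differ from Hbegf was not tested.

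**Figure D2:**
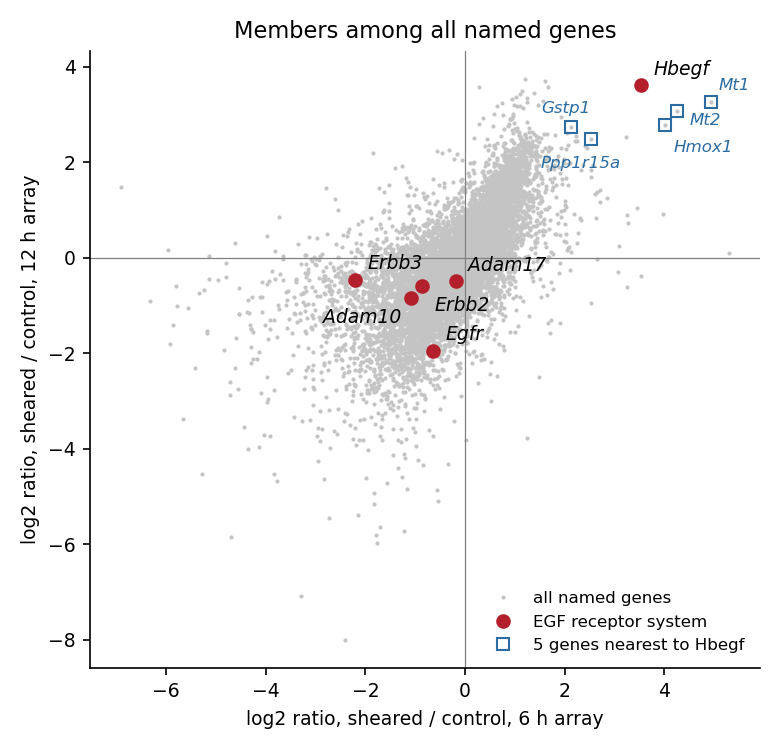
Log2 ratio at 6 h (horizontal axis) against 12 h (vertical axis) for the 10288 named genes with a value on both arrays (grey); red circles are the measured members of the EGF receptor system and blue squares the 5 genes nearest to Hbegf. Hbegf lies at 3.52 and 3.62 at the upper right, and the 5 other members lie at lower left within the cloud.

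The receptors of the set read below the array median on both arrays, each on a single measured probe. Egfr, a receptor of HB-EGF, stood at -0.64 at 6 h (1.56-fold lower) and -1.95 at 12 h (3.86-fold lower). A second Egfr spot on the array gave no value at either time. Erbb4, which encodes the other receptor of HB-EGF, was listed with the adaptors below and was not measured on either array. Erbb2, the partner receptor, stood at -0.87 at 6 h (1.82-fold lower) and -0.60 at 12 h (1.51-fold lower), below 2-fold on both arrays. Erbb3, the neuregulin receptor, stood at -2.20 at 6 h (4.61-fold lower) and -0.46 at 12 h (1.37-fold lower).

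Egfr and Erbb3 therefore ran in opposite orders over time. Egfr read 1.31 log2 lower at 12 h than at 6 h, and Erbb3 read 1.75 log2 higher at 12 h than at 6 h. Of all genes on both arrays, 7.36% lay at least 1 log2 lower at 12 h and 11.5% at least 1 log2 higher. Each of these values rests on 1 probe, has no check of its own and was not tested. ERBB3 is prominent in epithelia, so a list of epithelial markers was read beside it. All 6 listed genes were measured, with a median of -0.69 at 6 h (range -2.26 to 0.03). Of these, 2 were 2-fold lower at 6 h, against 18.9% of all genes. At 12 h the median was -0.36 (range -0.98 to 0.67), with none 2-fold lower, against 20.5% of all genes. The median difference, 12 h minus 6 h, was 0.57 for this list. It was also 0.57 for the macrophage and leukocyte markers, and 0.12 over all genes. The part of epithelial cells in the Erbb3 values was not tested.

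The sheddases read near or below the array median. Adam17, the main sheddase of several EGF receptor ligands, had 3 probes at 0.11, -0.19 and -0.31 at 6 h, with a median of -0.19 (probe SD 0.21). At 12 h the same probes read -0.11, -0.50 and -0.49, with a median of -0.49 (probe SD 0.23). All 3 Adam17 probes read lower at 12 h, by 0.21, 0.32 and 0.18 log2, and the medians stayed within the pooled SD between probes of 0.

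Adam10, a sheddase of EGF, betacellulin and many other membrane proteins, was less uniform. Its 3 probes read -1.09, -1.60 and -0.75 at 6 h, with a median of -1.09 (probe SD 0.42), or 2.12-fold lower. At 12 h they read -1.92, -0.84 and 0.34, with a median of -0.84 (probe SD 1.13), or 1.79-fold lower. The probes agreed in sign at 6 h and not at 12 h, where the lowest and the highest lay on opposite sides of 0.

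Counted over the set, 1 of the 6 measured members was at least 2-fold higher at 6 h, against 6.19% of all genes, and 2 (Erbb3 and Adam10) were at least 2-fold lower, against 18.9%. At 12 h 1 member was at least 2-fold higher, against 14.5% of all genes, and 1 (Egfr) was 2-fold lower, against 20.5%. Hbegf was the single member past 2-fold on the same side of both arrays in the centred values; 4.34% of all genes were 2-fold higher on both. Adam10 was 2-fold lower on both without centring (-1.41 and -1.32) and with print blocks centred (-1.29 and -1.04), and Erbb2 was so without centring (-1.19 and -1.08). All 5 members other than Hbegf lay below 0 on both arrays, as did 44.9% of all genes. This count was 5 under each of the 5 other settings of centring, scaling and probe summary. Of these, no centring and a common scale could not lift a value from below 0, so their result was fixed in advance. The mean of probes cannot change a gene with 1 probe. In the order of the members at 6 h, Hbegf lay 3.71 log2 above the next gene, Adam17. Adam17, Egfr, Erbb2 and Adam10 followed in steps smaller than the pooled SD between probes, and Erbb3 lay 1.12 below Adam10. At 12 h Hbegf lay 4.08 above Erbb3, the steps from Erbb3 through Adam17 and Erbb2 to Adam10 were within the pooled SD, and Egfr lay 1.11 below Adam10.

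The other ligands of the family were thinly covered. Of 8 listed, Tgfa, which encodes TGF-alpha, another ligand of EGFR, had values on both arrays and Nrg3, a neuregulin, on the 12 h array alone. Tgfa read low on every probe: -1.61, -1.29 and -1.08 at 6 h, with a median of -1.29 (probe SD 0.27, 2.44-fold lower), and -1.66, -1.23 and -1.41 at 12 h, with a median of -1.41 (probe SD 0.22, 2.66-fold lower). The 6 Tgfa readings and the 4 Hbegf readings thus lay on opposite sides of 0 without overlap. Of all genes, 9.8% were at least 2-fold lower on both arrays. Nrg3 stood at -0.71 at 12 h on 1 probe.

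Genes that act in ligand shedding were mixed. Of 11 listed, 7 were measured, with a median of 0.13 at 6 h and 0.07 at 12 h, against -0.11 and -0.14 over all genes. At 6 h none was 2-fold higher, against 6.19% of all genes, and 2 were 2-fold lower, against 18.9%. At 12 h 1 was higher, against 14.5% of all genes, and 1 lower, against 20.5%. Without centring none was higher and 2 were lower, and the shares of all genes were not computed there. Adam19, a metalloproteinase that can cut neuregulins, stood at -1.35 at 6 h and -2.36 at 12 h, and Adam8, another family member, at -1.95 and -0.24, each on 1 probe. Cd9, a tetraspanin that associates with the membrane-bound HB-EGF precursor, read above 0 on all of its probes. They gave 0.34, 0.40 and 0.25 at 6 h, with a median of 0.34 (probe SD 0.07), and 0.78, 1.19 and 1.03 at 12 h, with a median of 1.03 (probe SD 0.21). All 3 Cd9 probes read higher at 12 h; the 12 h value lay on the 2-fold bound and under it with the mean of probes, without centring and with arrays scaled to one median absolute deviation.

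Adaptors and the Ras and MAP kinase relay stood near the middle of the arrays. Of 26 listed genes 16 were measured, with medians of -0.11 at 6 h and -0.28 at 12 h. None was 2-fold higher on either array, while 3 were 2-fold lower at 6 h, against 18.9% of all genes, and 4 at 12 h, against 20.5%. These counts lie near the shares of all genes. With the mean of probes both were 2, and the 12 h count was 6 without centring and 5 with print blocks centred. The shares of all genes were not computed at these settings. The docking protein gene Gab1 stood at -1.68 and -1.82 on 1 probe, the kinase gene Braf at -1.22 (probe SD 1.08) and -1.23 (probe SD 1.31), and Pik3r1, a regulatory subunit of PI3 kinase, at -1.42 (probe SD 1.67) and -1.90 (probe SD 2.34). The probes of Braf and of Pik3r1 disagreed by more than the pooled SD.

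Inhibitors of the receptor and genes of its removal from the surface mostly read low, with one gene on the other side. Of 19 listed genes 15 were measured, with medians of -0.58 at 6 h and -0.99 at 12 h. At 6 h 1 was 2-fold higher (6.19% of all genes) and 3 were 2-fold lower, near the 18.9% of all genes. The count lower at 6 h became 5 without centring and 5 with the arrays on a common scale. At 12 h 1 was higher (14.5% of all genes) and 7 were lower (20.5% of all genes). Without centring none was higher and 12 were lower at 12 h. The shares of all genes were computed on the centred values only. The changed counts at 6 h and 12 h therefore have no share beside them and cannot be compared with those given. On both arrays 14 of the 15 lay below 0, against 44.9% of all genes. This count held under the 5 other settings, though no centring and a common scale could not lift a value from below 0. The gene not below 0 was Errfi1, which encodes MIG6, an inhibitor that binds the EGFR kinase domain and is itself induced by EGF. Its probes read 1.81 and 0.89 at 6 h, with a median of 1.35 (probe SD 0.65), and 1.63 and 0.86 at 12 h, with a median of 1.24 (probe SD 0.54). The ubiquitin ligase genes Cblb and Cbl, whose products mark EGFR for degradation, stood at -3.27 and -3.42 for Cblb and at -1.88 and -2.16 for Cbl, each on 1 probe. Spred2, an inhibitor of the Ras relay, stood at -1.06 and -1.74 on 1 probe, and the endocytic adaptor gene Eps15 at -0.995 (probe SD 1.04) and -1.99 (probe SD 0.16).

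**Figure D3:**
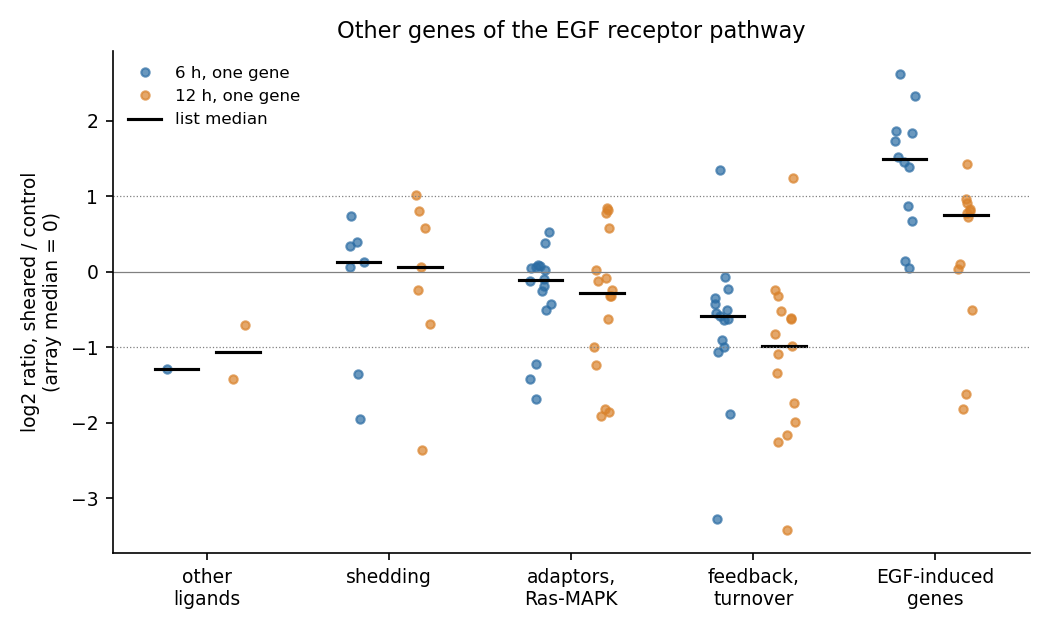
Log2 ratio of sheared over control (vertical axis, array median at 0) for each measured gene of the 5 pathway lists; blue points are the 6 h array, orange points the 12 h array, black bars list medians and dotted lines 2-fold. The EGF-induced genes have medians of 1.49 at 6 h and 0.76 at 12 h, and Errfi1 is the single feedback and turnover gene above 0.

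The listed genes that EGF is known to induce read high at 6 h and lower at 12 h. Of 19 listed, 12 were measured, with a median of 1.49 at 6 h, where 8 were at least 2-fold higher, against 6.19% of all genes, and none 2-fold lower, against 18.9%. At 12 h the median was 0.76, with 1 gene 2-fold higher, against 14.5% of all genes, and 2 lower, against 20.5%. The count higher at 12 h was 0 without centring and 2 with print blocks centred, where the share of all genes was not computed. The gene higher on both arrays was Klf10, a transcription factor gene, at 1.74 and 1.43 on 1 probe. The AP-1 gene Fosl1 stood at 2.63 and 0.83 on 1 probe. Myc, a growth regulator, had 3 probes at 2.32, 2.33 and 2.73 at 6 h. The same probes read 0.78, 0.67 and 1.10 at 12 h, on 1 array per time point. Egr1, at -1.81 on 1 probe, and Klf6, at -1.61 (probe SD 1.59), were the genes 2-fold lower at 12 h; both encode early transcription factors and were singled out with their values in view. One of the 4 Klf6 probes read 1.46 at 12 h, and with the mean of probes the count of genes 2-fold lower was 1.

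Between the times the EGF-induced genes read lower as a list, while Hbegf changed little in the centred values that were not rescaled. All 12 EGF-induced genes read lower at 12 h than at 6 h, against 43.4% of all genes, and 7 of them by at least 1 log2, against 7.36%. The median of their differences was -1.21, with a range from -2.49 for Egr1 to -0.10 for Ptgs2, beside 0.12 over all genes and 0.10 for Hbegf. With print blocks centred 11 of the 12 read lower, with a median of -0.997, and with arrays scaled to one median absolute deviation all 12 did, with a median of -1.45 beside the -0.73 of Hbegf. The differences of Ptgs2 (-0.10), Klf10 (-0.31), Plaur (-0.56) and Ier2 (-0.65) were smaller than the pooled SD between probes on either array. This SD is a spread within an array and not the error of a difference between arrays. Not every probe read lower at 12 h: a probe of Ier2 rose from 1.37 to 1.64, and a probe each of Ptgs2, Klf6 and Mcl1 also rose. The Plaur medians rest partly on different spots at the 2 times, and its shared probe read 1.48 and 1.27. The list does not hold every gene that EGF induces. Errfi1, also induced by EGF but kept in the feedback list, read 1.35 at 6 h and 1.24 at 12 h, a difference of -0.10. The difference between Hbegf and the EGF-induced genes was not tested.

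**Figure D4:**
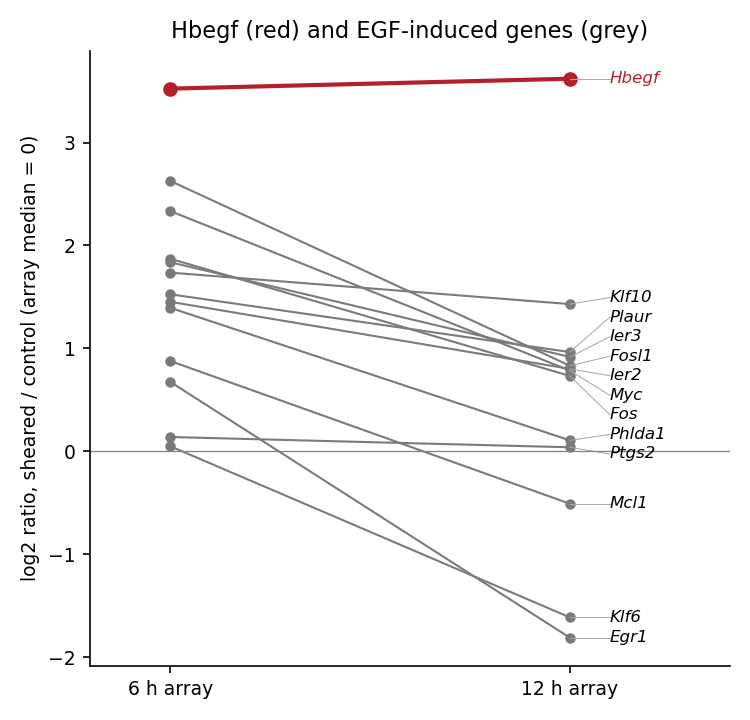
Log2 ratio of sheared over control (vertical axis, array median at 0) on the 6 h and 12 h arrays for Hbegf (red) and the 12 measured EGF-induced genes (grey), each line 1 gene. All 12 grey lines run downward, while Hbegf stands at 3.52 and 3.62.

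Markers of cell types were read beside these values. Of 10 tendon markers 6 were measured, with medians of 0.07 at 6 h and -0.07 at 12 h and none past 2-fold; the defining tendon genes Scx, Tnmd and Mkx were not among them, so the labelled cell type could not be checked on them, nor can ratios show whether a marker is present. Of 6 fibroblast markers 4 were measured, with medians of -0.72 at 6 h (range -1.16 to 0.38, 1 gene 2-fold lower) and -1.36 at 12 h (range -1.86 to 0.63, 3 genes 2-fold lower). Of 7 macrophage and leukocyte markers 6 were measured, with a median of 0.42 at 6 h (range -5.42 to 0.80, 1 gene 2-fold lower). At 12 h their median was 0.80 (range -2.31 to 1.70, 3 genes 2-fold higher and 2 lower). Of 5 endothelial markers 3 were measured, with medians of -0.25 at 6 h (range -2.03 to 1.76, 1 gene 2-fold higher and 1 lower) and -0.57 at 12 h (range -0.65 to -0.07, none past 2-fold). Over all genes, 6.19% were 2-fold higher and 18.9% 2-fold lower at 6 h, and 14.5% and 20.5% at 12 h. The part of these cell types in the values of the members was not tested.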

How the data were processed

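The deposited table holds the authors' log2 ratios per spot (base assumed) for 2 arrays; their normalization, scanner and spot filter are not given in the sources used here. Per the labels, control RNA was in Cy3 and sheared RNA in Cy5. Of 42624 spots, 39776 had a value at 6 h and 41717 at 12 h. Spot intensities were not used, so brightness and dye trends could not be checked and depth is unknown. Gene names came from GEO's platform annotation, and gene IDs were looked up in the RefSeq table of GRCm38.p6; 21703 carried 1 symbol, 1122 several and 19799 none.

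The median over all spots of an array was subtracted from its values, and genes were summarised by the median of their probes (Python 3.11.15, pandas 2.3.3, numpy 2.4.6); the code was tested on simulated data. The members and all gene lists were chosen with earlier results of these data known. Named were all members, list genes past 2-fold on the same side of both arrays and the 3 of each pathway list with the largest mean absolute log2 ratio among genes on both arrays, and the 5 genes with 2 or more probes nearest to Hbegf. The alternatives were no centring, centring of 48 print blocks of 900 consecutive spots, the mean of probes, probes with several symbols kept, arrays scaled to one median absolute deviation, each probe left out, 1.5-fold and 3-fold thresholds, and members with 2 or more probes. For the lists and the differences between times these were chosen after seeing the data. Shares of all genes were computed at 2-fold on the centred values only.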

Additional observations from a re-analysis of the deposited data

How the results depend on the processing

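Over centring, scaling, probe summary and leaving out either probe, Hbegf ranged from 3.20 to 3.98 at 6 h and from 3.14 to 3.78 at 12 h, and every member kept its side of 0 on both arrays. For the members below 0, no centring and a common scale could not have changed the side. The count of members 2-fold higher was 1 on each array under all settings. The count 2-fold lower at 6 h was 2, and became 3 without centring, 4 at 1.5-fold, 1 at 3-fold and 1 among members with 2 or more probes. The count at 12 h was 1, and became 3 without centring, 2 with print blocks centred, 3 at 1.5-fold and 0 among members with 2 or more probes. The shares of all genes were not computed at these other settings, so the changed counts have no share beside them. No paired analysis was possible because there was 1 array per time point.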

Other observations

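Probes of 1 gene lay on opposite sides of 0 for several genes of the pathway, named here after their values were seen. The probes of Spred1, an inhibitor of the Ras relay, read 1.001 and -2.01 at 6 h and 0.71 and -3.39 at 12 h. Those of Pik3r1 read -1.72, 1.32 and -1.42 at 6 h and -1.90, 1.86 and -2.43 at 12 h. In both genes each probe kept its sign between the arrays. The sequences of the probes were not used here.

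Erbin, a protein that binds ERBB2 at the membrane, was named after its values were seen. Its 2 probes gave -0.64 at 6 h (probe SD 0.08) and -2.26 at 12 h (probe SD 0.16), a difference of -1.62. Of the 15 measured feedback and turnover genes, 1 (Erbin) lay at least 1 log2 lower at 12 h than at 6 h. This is near the 7.36% of all genes, and Eps15 came close to the bound with a difference of -0.99.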
